A study of Mus musculus with 8 samples.

Results

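Hedgehog signalling was examined through 9 genes on the arrays, the ligands Dhh, Ihh and Shh, the receptor Ptch1, the transducer Smo, the transcription factors Gli1, Gli2 and Gli3, and the decoy receptor Hhip. Probes were taken where the gene name in the array files was one of these 9 symbols and the spot was not a control. This gave 16 of the 41174 probes on the array, for 9 of its 27962 gene names. Gene expression was measured with 1-color Agilent Whole Genome Mouse arrays in total RNA from the testes of male mice at postnatal day 8, with 4 wild type and 4 VRK1-deficient samples and 1 array per sample. VRK1-deficient mice were homozygous for a gene trap that places a β-geo reporter in an intron of Vrk1, and the study describes this allele as hypomorphic, with some full-length VRK1 left. The allele came from 1 embryonic stem cell line, RRR178, and the methods give a backcross to C57BL/6. The methods call the samples of a genotype biological replicates, and the labels number them as replicates.

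In Hedgehog signalling, a secreted ligand binds the receptor patched (PTCH1), which otherwise holds the membrane protein smoothened (SMO) inactive. Active SMO lets the GLI transcription factors turn on their targets, among them Gli1, Ptch1 and Hhip themselves, so the RNA of these genes is widely used as a readout of the pathway. In the testis, desert hedgehog (DHH) is made by Sertoli cells inside the seminiferous tubules and is received by the Leydig and peritubular cells outside them, where it is needed for the formation of fetal Leydig cells and of the tubule wall. The comparison of wild type with VRK1-deficient testes asks whether the RNA of these genes differed.

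Each array carries DNA probes of 60 bases, and the signal of a probe is read from 1 short stretch of a transcript. For Dhh, Smo, Gli3 and Hhip, the last 30 bases of a probe are given 5′ to 3′ as listed in the array files, with the polyadenylation signal AATAAA in capitals where it occurs. They are part of the stretch of sequence that each probe reads. Positions were read from the array files, which use mouse build mm7, and whether they fall in coding sequence or in an untranslated region was not determined.
Dhh A_52_P232637 (NM_007857, minus strand, chr15:98878292-98878351): tttgtggccaaAATAAAgattctagagtga
Smo A_52_P444864 (NM_176996, plus strand, chr6:29687728-29688961): atgactctgttctccatcaagagcaaccac
Gli3 A_51_P171288 (AK048009, plus strand, chr13:15096631-15096690): tcctgcagatgtgtaaAATAAActgtgttc
Hhip A_52_P249826 (NM_020259, minus strand, chr8:78511903-78511962): tacattgtatagtttctgggacagttcgag
Hhip A_51_P416822 (AK034610, minus strand, chr8:78506418-78506477): ttctagtaggaaaatcttgtgtcttccttg
AATAAA was present in 2 of the 16 probes, those of Dhh and Gli3, and in 4.78% of all probes on the array. The Smo probe spans 1234 bases of the genome with its 60 bases, as a probe placed across a splice junction would. The 2 Hhip probes lie apart on chromosome 8, 1 named by a RefSeq transcript and 1 by a cDNA clone.

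A log2 level is the processed signal of a probe divided by the 75th percentile of signals on the same array, in log2 units, so that percentile lies at 0. Levels are compared between arrays for 1 probe and not between probes. A log2 change is the mean of the VRK1-deficient arrays minus the mean of the wild type arrays. A probe was tested with limma if it was well above background on 4 or more of the 8 arrays, with Benjamini-Hochberg adjustment over the 26948 such probes, and a probe with an adjusted p under 0.05 was called. The 75th percentile lay between 548 and 851 signal units over the 8 arrays, and 63.6% to 69.5% of spots were well above background. The targeted gene Vrk1 (A_51_P102339) had log2 levels of -0.20 to 0.59 on the wild type arrays and of -4.17 to -3.58 on the VRK1-deficient arrays. Wild type replicate 1 was more like every VRK1-deficient array than like any other wild type array. Its correlation across probes was 0.987 to 0.990 with the VRK1-deficient arrays and 0.970 to 0.986 with the other wild type arrays. For wild type replicate 3 these correlations were 0.963 to 0.976 and 0.970 to 0.986. Without wild type replicate 1, 7655 probes were called in place of 986, and leaving out a single other array gave 3 to 68. Replicates 1 and 2 of both genotypes lay on slide 1 and replicates 3 and 4 on slide 2, and on both slides the wild type samples took the first 2 positions, so that array position and genotype cannot be told apart.

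Of the 16 probes, 11 probes of 8 genes were tested, and 9 of these, for 7 genes, were well above background on all 8 arrays. A single probe, for Hhip, was called, against 3.66% of all tested probes. At an unadjusted p under 0.05 there were 5 of the 11 probes, for Dhh, Gli1, Gli3 and Hhip, against 28.8% of all tested probes. No overlap between genotypes was seen for 3 of the 11 probes, against 16.7% of all tested probes. Of the 11 log2 changes 9 were above 0, against 54.5% of all tested probes. Their median was 0.36, and that of all tested probes was 0.04. Taking the brightest probe of each gene, the median of the 8 genes was 0.24. The members were chosen with results of these arrays known, and some share a gene, so no p is given for the list. Without wild type replicate 1, 5 of the 11 probes were called, for Dhh, Gli1, Gli3 and both of Hhip, against 28.4% of all tested probes. That array was singled out on these same data for its likeness to the VRK1-deficient arrays. Leaving it out can widen the difference between genotypes for that reason alone, so calls made without it are no independent support. RNA was taken from whole testes, in which fewer cells of a type and less RNA per cell cannot be told apart.

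**Figure D1:**
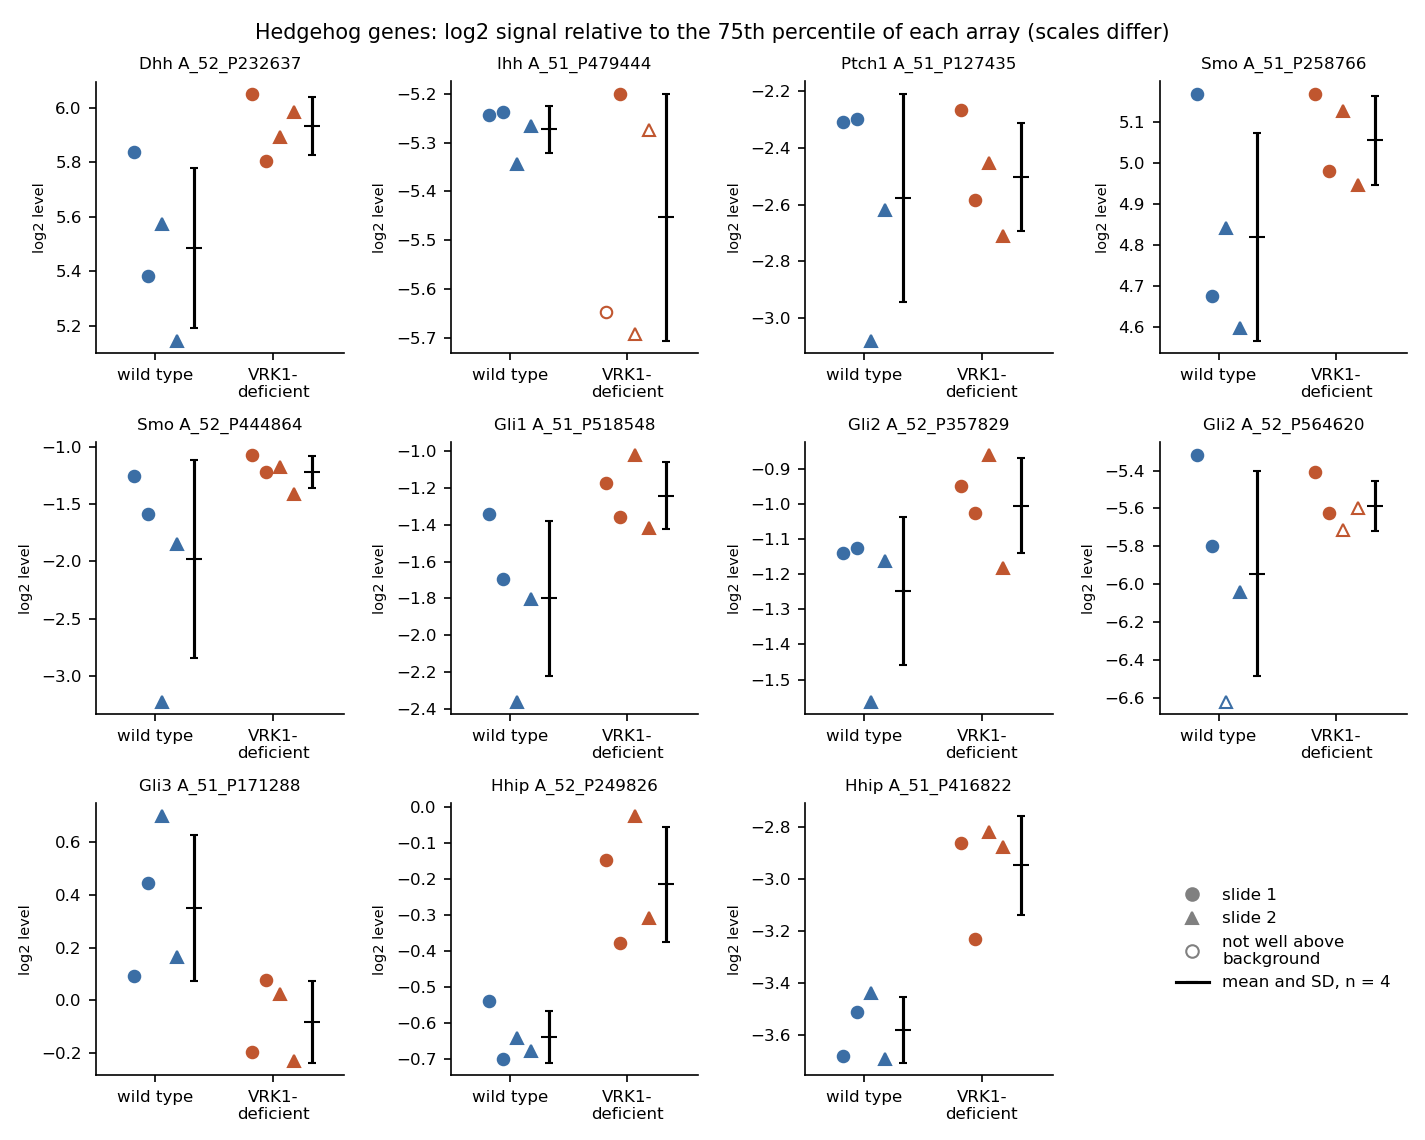
Log2 level (vertical axis, in log2 units against the 75th percentile, with a different scale in each panel) of the 11 tested Hedgehog probes on the 4 wild type and 4 VRK1-deficient arrays, with the mean and SD in black, circles for slide 1, triangles for slide 2 and open symbols where a probe was not well above background. The genotypes are separate for both Hhip probes and for the Gli3 probe, and wild type replicate 3 is the lowest of the 8 arrays for Ptch1, Smo A_52_P444864, Gli1 and both Gli2 probes.

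Among the ligands, Dhh had strong signal on every array, Ihh had signal near background and Shh had none well above it. The log2 levels of Dhh were 5.84, 5.38, 5.57 and 5.15 on wild type replicates 1 to 4 and 6.05, 5.81, 5.89 and 5.98 on VRK1-deficient replicates 1 to 4. Of the VRK1-deficient arrays 3 lay above all wild type arrays, and replicate 2 lay just under wild type replicate 1. The log2 change was 0.45 ± 0.16 (SE, limma adjusted p = 0.106), a ratio of 1.36, and it did not pass the threshold. Slide 1 alone gave 0.32 and slide 2 alone gave 0.58. Without wild type replicate 1, the highest of its group, the change was 0.57 (limma adjusted p = 0.0167), and dropping a single other array gave an adjusted p between 0.127 and 0.254.

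The Shh probe A_52_P49014 was spotted 10 times on each array, and 0 of its 80 spots were well above background. Sonic hedgehog is the ligand of limb and neural patterning. Indian hedgehog, the ligand of cartilage growth, had 2 probes, of which A_52_P403398 was not well above background on any array. The other, A_51_P479444, passed the background test on all 4 wild type arrays and on 1 of the 4 VRK1-deficient arrays. Its log2 levels were -5.24, -5.24, -5.34 and -5.27 on the wild type arrays and -5.65, -5.20, -5.69 and -5.27 on the VRK1-deficient arrays. The VRK1-deficient values spread on both sides of the wild type values, with an SD of 0.25 against 0.05. This probe too had 10 spots, with 7, 9, 8 and 10 of them well above background on wild type replicates 1 to 4 and 1, 9, 4 and 2 on VRK1-deficient replicates 1 to 4, of the spots not marked as outliers. The log2 change was -0.18 ± 0.14 (SE, limma adjusted p = 0.407), and it turned to 0.22 with the normexp background correction (limma adjusted p = 0.277).

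PTCH1 is both the receptor of the ligands and a target of the pathway, and its levels overlapped between genotypes. The log2 levels of Ptch1 A_51_P127435 (chr13:61333864-61333923) were -2.31, -2.30, -3.08 and -2.62 on the wild type arrays and -2.27, -2.58, -2.45 and -2.71 on the VRK1-deficient arrays. Wild type replicate 3 was the lowest of the 8, and the other 7 arrays lay between -2.71 and -2.27. The log2 change was 0.07 with a 95% confidence interval from -0.36 to 0.50 (limma adjusted p = 0.818). The sign was not stable, since the change was -0.09 without wild type replicate 3, -0.0049 without VRK1-deficient replicate 1, -0.12 within slide 1 and -0.11 with the deposited signals not scaled between arrays. Within slide 2 it was 0.27. The second Ptch1 probe, A_52_P598605, placed at chr13:61331255-61331314, was not well above background on any array.

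SMO carries the signal from PTCH1 to the GLI factors, and both of its probes above background had higher means in VRK1-deficient testes without passing the test. Smo A_51_P258766 (chr6:29693371-29693430) had log2 levels of 5.17, 4.67, 4.84 and 4.60 on the wild type arrays and 5.17, 4.98, 5.13 and 4.95 on the VRK1-deficient arrays. No VRK1-deficient array lay above wild type replicate 1, and all 4 lay above the other wild type arrays. The change was 0.23 ± 0.14 (SE, limma adjusted p = 0.305). The probe spanning 1234 bases, A_52_P444864, had log2 levels of -1.26, -1.59, -3.22 and -1.85 on the wild type arrays and -1.07, -1.22, -1.18 and -1.41 on the VRK1-deficient arrays. Its change was 0.76 ± 0.37 (SE, limma adjusted p = 0.203), and the size of this change depended on wild type replicate 3. Without that array the change was 0.34 ± 0.16 (SE), with the limma adjusted p again at 0.203. Slide 1 alone gave 0.28 and slide 2 alone gave 1.24. The third Smo probe, A_51_P392665, was not well above background on any array.

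None of the probes of the 3 GLI factors was called by limma, with Gli1 and Gli3 at an unadjusted p under 0.05. GLI1 is an activator whose gene is itself switched on by the pathway, GLI2 is the main activator that receives the signal, and GLI3 acts mostly as a repressor when no ligand is present. The log2 levels of Gli1 A_51_P518548 were -1.34, -1.69, -2.36 and -1.81 on the wild type arrays and -1.17, -1.36, -1.02 and -1.42 on the VRK1-deficient arrays. VRK1-deficient replicates 1 and 3 lay above all wild type arrays, and the other two lay just below wild type replicate 1. The log2 change was 0.56 ± 0.21 (SE, limma adjusted p = 0.122), a ratio of 1.47. Slide 1 alone gave 0.25 and slide 2 alone gave 0.87. Without wild type replicate 1 it was 0.71 (limma adjusted p = 0.0232), and without wild type replicate 3 it was 0.37 (limma adjusted p = 0.168).

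The brighter Gli2 probe, A_52_P357829 (chr1:118695197-118695256), had log2 levels of -1.14, -1.13, -1.56 and -1.16 on the wild type arrays and -0.95, -1.03, -0.86 and -1.18 on the VRK1-deficient arrays. Of the VRK1-deficient arrays 3 lay above every wild type array, and replicate 4 lay below all wild type arrays but replicate 3. The change was 0.24 ± 0.14 (SE, limma adjusted p = 0.264), and it fell to 0.14 without wild type replicate 3. The dimmer Gli2 probe, A_52_P564620 (chr1:118696781-118696840), was well above background on 3 wild type and 2 VRK1-deficient arrays. Its log2 levels ranged from -6.62 to -5.32 on the wild type arrays and from -5.72 to -5.41 on the VRK1-deficient arrays, with a change of 0.36 (limma adjusted p = 0.353) that was 0.13 without wild type replicate 3.

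Gli3 A_51_P171288 was the only tested Hedgehog probe whose arrays were separate in the lower direction. Its log2 levels were 0.09, 0.44, 0.70 and 0.17 on the wild type arrays and -0.20, 0.08, 0.02 and -0.23 on the VRK1-deficient arrays. Every VRK1-deficient array was below every wild type array, although VRK1-deficient replicate 2 and wild type replicate 1 nearly met. Before scaling the groups overlapped, with signals of 713 to 1157 in wild type and 467 to 786 in VRK1-deficient testes. Groups separate in the lower direction were seen for 7.31% of all tested probes. The log2 change was -0.43 ± 0.16 (SE, limma adjusted p = 0.117), and wild type was 1.35-fold higher. Slide 1 alone gave -0.33 and slide 2 alone gave -0.54. Without wild type replicate 1 the change was -0.52 (limma adjusted p = 0.0378), and dropping a single other array gave an adjusted p between 0.148 and 0.27. The second Gli3 probe, A_51_P410070, was not well above background as a probe on any array, with 3 of its 76 spots so, all on 2 wild type arrays.

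Hhip encodes a membrane protein that binds all 3 ligands and keeps them from PTCH1. It was higher in VRK1-deficient testes on both probes, and it held the only Hedgehog probe that was called. Hhip A_51_P416822 had log2 levels of -3.68, -3.51, -3.44 and -3.69 on the wild type arrays and -2.86, -3.23, -2.82 and -2.88 on the VRK1-deficient arrays. The groups did not overlap, and VRK1-deficient replicate 2 came nearest to the wild type arrays. The level rose by 0.63 ± 0.13 in log2 units (SE, limma adjusted p = 0.0471), a ratio of 1.55. The signal was low, between 52.1 and 99.5 units before scaling, but well above background on all 8 arrays. Before scaling the groups touched, with the highest wild type signal at 74.55 and the lowest VRK1-deficient signal at 74.52. The call was lost on dropping any single array but wild type replicate 1, with an adjusted p between 0.0598 and 0.147 and a change between 0.59 and 0.73. Without wild type replicate 1 the adjusted p was 0.0152. Slide 1 alone gave 0.55 and slide 2 alone gave 0.72. It fell to 0.45 with the deposited signals not scaled between arrays (limma adjusted p = 0.22).

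The second Hhip probe, A_52_P249826, had log2 levels of -0.54, -0.70, -0.64 and -0.68 on the wild type arrays and -0.15, -0.38, -0.03 and -0.31 on the VRK1-deficient arrays. These groups did not overlap either, which in the higher direction was seen for 9.4% of all tested probes. Before scaling they overlapped, with signals of 412 to 524 in wild type and 442 to 654 in VRK1-deficient testes. The change was 0.42 ± 0.12 (SE, limma adjusted p = 0.0640), a ratio of 1.34, with 0.36 within slide 1 and 0.49 within slide 2. The intervals of both Hhip probes overlapped, from 0.34 to 0.93 for A_51_P416822 and from 0.16 to 0.68 for A_52_P249826 at 95% confidence.

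**Figure D2:**
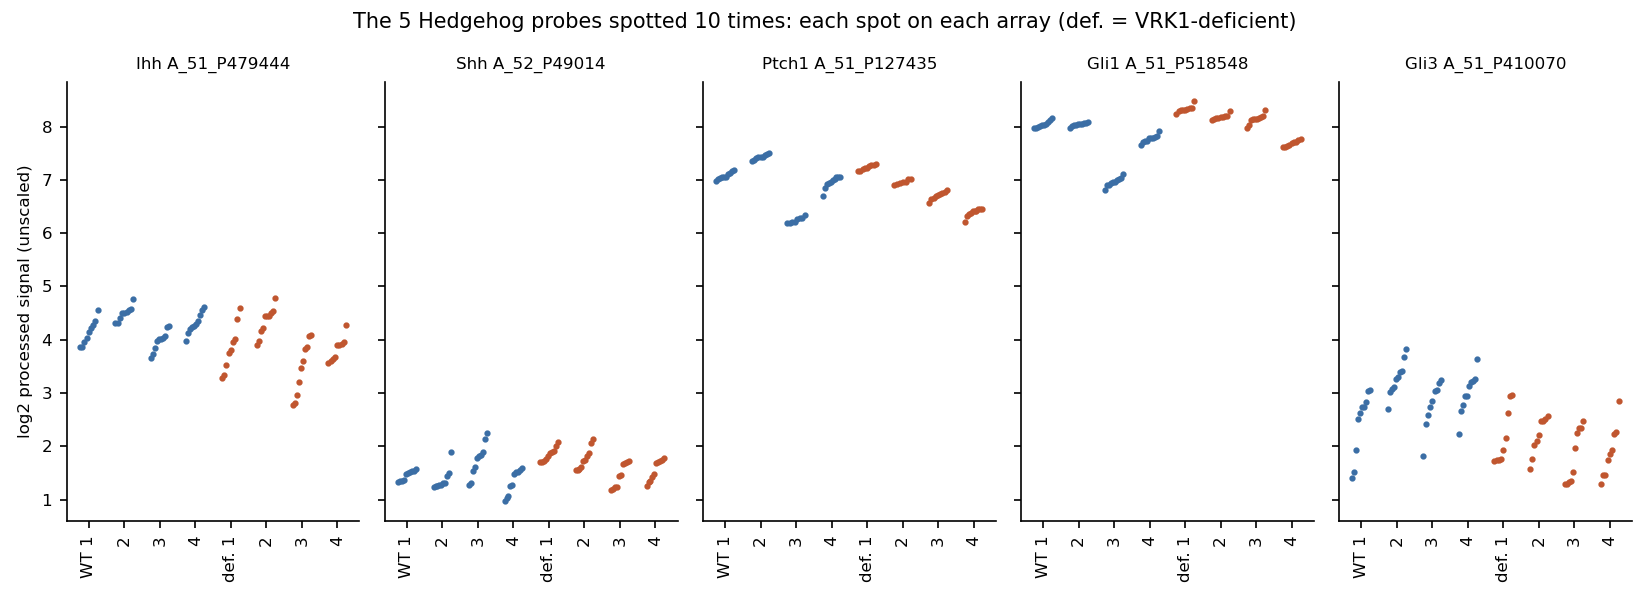
Log2 processed signal (vertical axis, not scaled between arrays) of each spot of the 5 Hedgehog probes printed 10 times on every array, in blue for wild type and in red-brown for VRK1-deficient, with the spots of an array sorted by value. Spots of Gli1 and Ptch1 lie close together within an array. Wild type replicate 3 lies below all other arrays for Gli1, and its Ptch1 spots overlap those of VRK1-deficient replicate 4. The Shh spots lie at the bottom of the scale on all 8 arrays.

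The probes printed 10 times give the spread among spots within an array, while labeling, hybridization and scaling are shared by all spots of an array and stay in the spread between arrays. For Gli1 the SD among spots of 1 array was between 0.033 and 0.093 on the log2 scale, and the SD between wild type arrays was 0.42. For Ptch1 the SD among spots was between 0.043 and 0.11, and the SD between wild type arrays was 0.37. The low values of wild type replicate 3 for both genes were thus shared by its repeated spots. For the dim Ihh probe the SD among spots was between 0.14 and 0.50. Wild type replicate 3 was the lowest of the 8 arrays for 5 of the 11 Hedgehog probes, and for 25.1% of all tested probes. It was the highest for 1 of the 11, and for 21.9% of all tested probes.

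The log2 changes of all 11 probes were recomputed under the alternatives listed with the methods. For 9 of the probes the sign was the same under every alternative run, and the exceptions were Ptch1 and Ihh. The called Hhip probe was called under 7 of 19 alternatives. The second Hhip probe, Dhh, Gli1 and Gli3 were each called under 1, which left out wild type replicate 1, and the Ptch1, Ihh, Smo and Gli2 probes under none. Of the 11 probes 10 had a larger change in size within slide 2 than within slide 1, as had 68.3% of all tested probes.

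**Figure D3:**
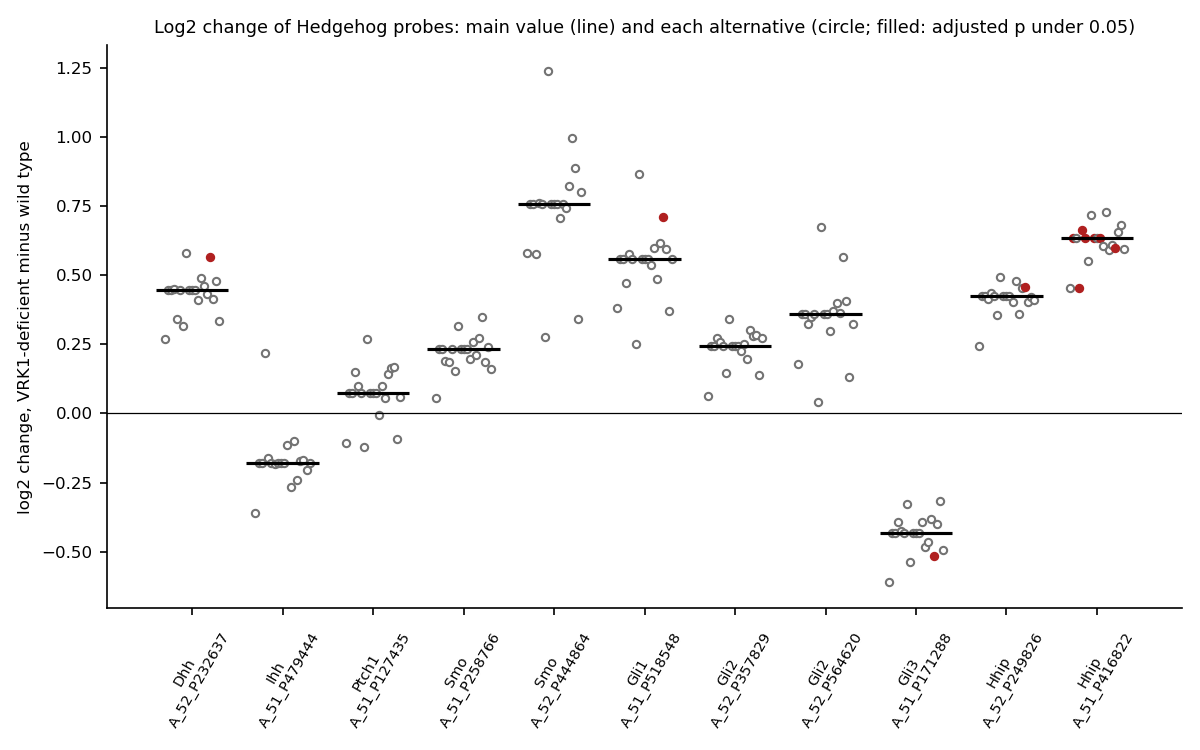
Log2 change (vertical axis, VRK1-deficient minus wild type) of the 11 tested Hedgehog probes, with the reported value as a line and each alternative processing, left-out array or single slide as a circle, filled where the adjusted p was under 0.05 (limma, or the t-test where that was the alternative). Gli3 stays below 0 and Dhh, Gli1, Smo, Gli2 and Hhip stay above 0 in all circles, while Ptch1 and Ihh cross 0.

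The rest of the pathway was described with 39 genes in 4 groups drawn up from general knowledge, each represented by its brightest tested probe. Of these, 35 were tested and 3 were called, with 2 higher and 1 lower, against 4.09% of all symbols tested in the same way. The genotypes were separate for 6 of the 35, against 17.7% of all symbols. Of the 35 log2 changes 19 were above 0, with a median of 0.04, and the median over the brightest probes of all symbols was also 0.04. Without wild type replicate 1, 16 of the 35 were called, against 28.4% of all tested probes. That share is over probes, unlike the shares over symbols above, so it is not a like comparison.

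Of the 6 genes that process and release the ligands, 4 were tested and none was called by limma or by the methods' t-test. At an unadjusted limma p under 0.05 there were 2 (28.8% of all tested probes). With an intensity trend and robust variances 1 was called, as were 1915 of all 26948 tested probes. Scube2, a secreted protein that helps to free lipid-bearing ligand, had log2 levels of -2.90, -1.72, -1.97 and -1.46 on the wild type arrays and -3.63, -2.81, -3.00 and -3.41 on the VRK1-deficient arrays. Wild type replicate 1 lay among the VRK1-deficient arrays, and the change was -1.20 ± 0.31 (SE, limma adjusted p = 0.0596). The change of Disp1, the transporter that releases the ligand, was -0.41 (limma adjusted p = 0.160) on its brightest probe and 0.04 on its other probe. That of Hhat, the enzyme that attaches palmitate to the ligand, was 0.40 (limma adjusted p = 0.176). Disp2 and Scube3 were not tested.

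All 6 receptors and surface binding proteins were tested, and Gpc3 rose. Gpc3 encodes glypican-3, a cell-surface proteoglycan that binds hedgehog ligands in competition with PTCH1. Its log2 levels were 0.91, 0.91, 0.98 and 0.87 on the wild type arrays and 2.01, 1.96, 2.04 and 1.72 on the VRK1-deficient arrays, with no overlap. The change was 1.02 ± 0.11 (SE, limma adjusted p = 0.0255), a ratio of 2.02, with 1.07 within slide 1 and 0.96 within slide 2. The call was lost when any 1 of wild type replicates 2 and 4 and VRK1-deficient replicates 1, 2 and 3 was left out, with an adjusted p of up to 0.105. Boc, a co-receptor, was separate between genotypes, with a change of 0.49 (limma adjusted p = 0.123) that was 0.30 without wild type replicate 3. Lrp2, an endocytic receptor, had a change of -1.18 (limma adjusted p = 0.0616) with wild type replicate 1 at -3.60 among VRK1-deficient arrays from -4.39 to -3.34.

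Of 17 genes of intracellular transduction, all were tested, and Stk36 fell. Stk36 encodes the mammalian counterpart of the fly kinase Fused, which in mice serves mainly the building of motile cilia. Its log2 levels were -0.72, -0.60, -0.27 and -0.45 on the wild type arrays and -1.12, -1.01, -1.19 and -1.49 on the VRK1-deficient arrays, with no overlap. It fell by 0.69 in log2 units (SE 0.15, limma adjusted p = 0.0473), and its other probes had changes of -0.41 and -0.30. With slide as a block the call was lost (limma adjusted p = 0.0515). The adjusted p was between 0.0698 and 0.147 on dropping any single array but wild type replicate 1. Evc, a ciliary protein that binds SMO, was separate between genotypes, with a change of 0.53 (limma adjusted p = 0.0778). Kif3a, a motor of ciliary transport, had a change of -0.73 (limma adjusted p = 0.124). The median over the 17 genes was -0.04, with 8 changes above 0 and 9 below. Probes of Sufu, the inhibitor that holds GLI factors in the cytoplasm, disagreed, with 0.29 on the brightest and -0.78 and -0.55 on the others.

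Of 10 genes that are targets of the pathway in other tissues, 8 were tested and Spp1 rose. Spp1 encodes osteopontin, a secreted matrix protein made by many cell types. Its log2 levels were 3.60, 2.98, 3.16 and 2.57 on the wild type arrays and 4.32, 3.97, 3.81 and 3.96 on the VRK1-deficient arrays, without overlap. The change was 0.94 ± 0.21 (SE, limma adjusted p = 0.0497), and the adjusted p was between 0.0750 and 0.150 on dropping any single array but wild type replicate 1. Ccnd2, the cell cycle gene cyclin D2, had levels from 4.35 to 5.20 on the wild type arrays and from 5.24 to 5.56 on the VRK1-deficient arrays, with a change of 0.65 (limma adjusted p = 0.0657). Osr1, a transcription factor of mesenchyme, had a change of 0.60 (limma adjusted p = 0.0950). Foxf1, a common target of hedgehog in gut and lung mesenchyme, had a change of -0.54 (limma adjusted p = 0.168).

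**Figure D4:**
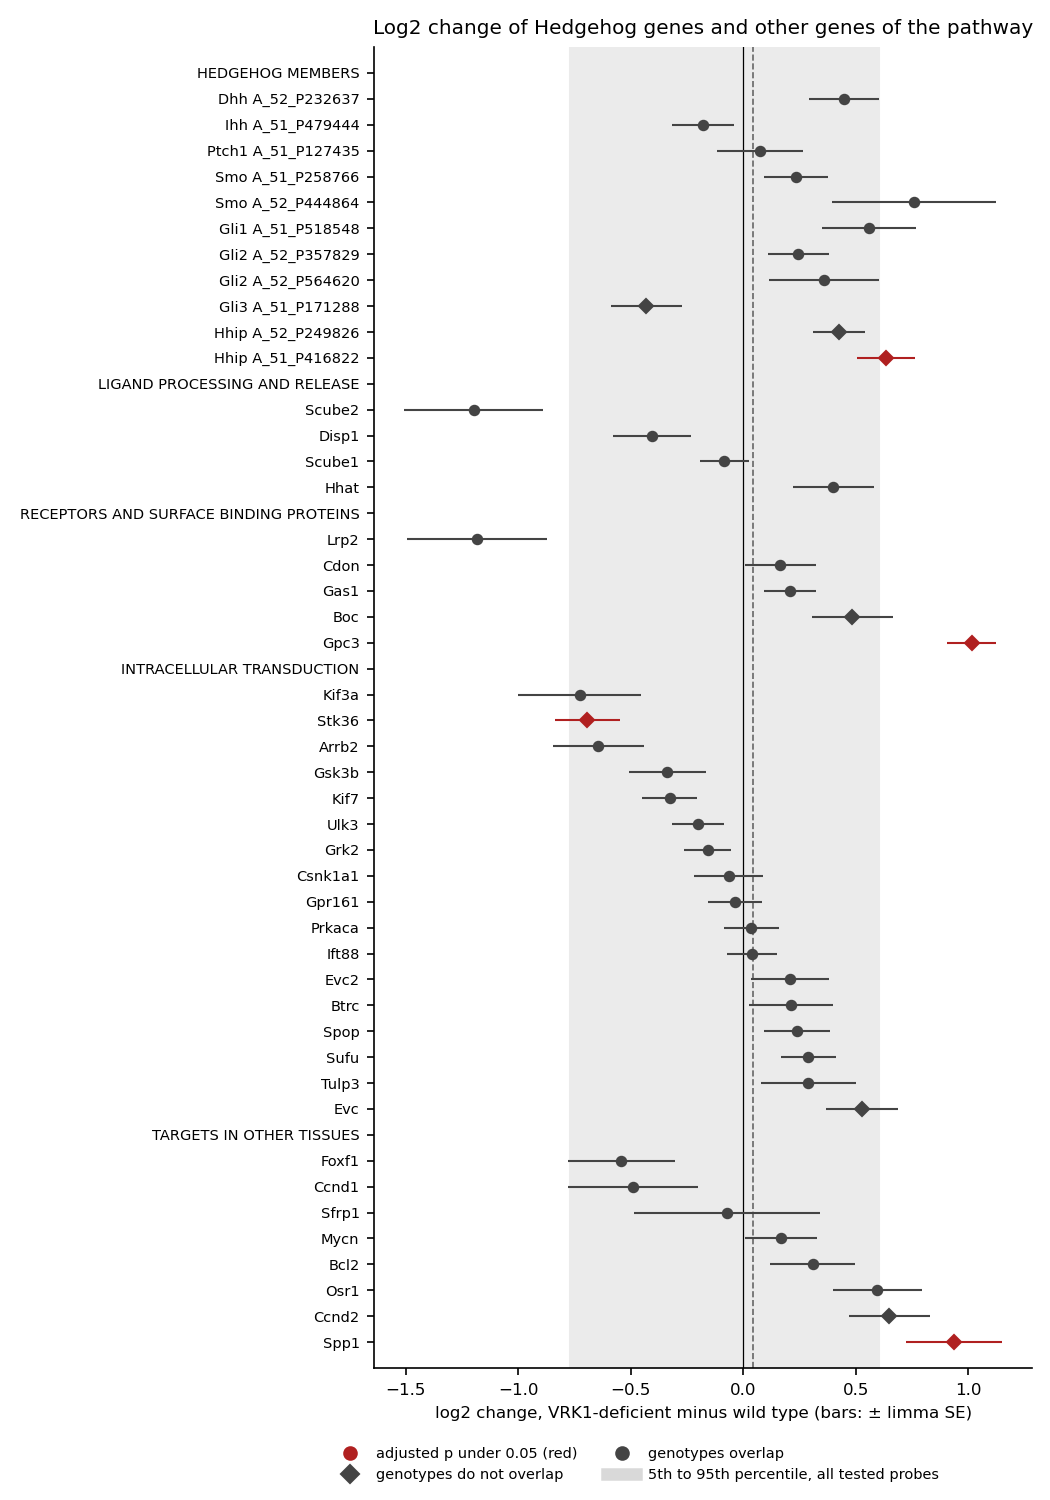
Log2 change (horizontal axis, VRK1-deficient minus wild type, bars are the limma standard error) of the 11 Hedgehog probes and of other tested genes of the pathway by role, red where the adjusted p was under 0.05 and diamonds where the genotypes did not overlap. The grey band is the 5th to 95th percentile of all tested probes, from -0.77 to 0.60, and the dashed line is their median of 0.04. Gpc3 at 1.02 lies farthest right, and Scube2 at -1.20 lies farthest left.

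Marker genes of the testicular cell types were measured beside these genes, and their part in the Hedgehog results was not tested. All 41 markers in 7 lists were tested and well above background on all 8 arrays, and 3 were called, against 4.09% of all symbols. These were Tdrd1, Pdgfra and Cnn1, and each lost its call on dropping any single array but wild type replicate 1. With slide as a block, Tdrd1 (limma adjusted p = 0.0516) and Pdgfra (limma adjusted p = 0.0532) also lost theirs. All 7 germ cell markers had lower means in VRK1-deficient testes, with a median change of -0.96, and Tdrd1 fell (change -1.11, limma adjusted p = 0.0498). All 7 had an unadjusted limma p under 0.05 (28.8% of all tested probes). The genotypes were separate for 1 of them, Tdrd1 (17.7% of all symbols). The mean log2 level of the germ cell list was 1.45 to 3.02 on the wild type arrays and 0.90 to 1.69 on the VRK1-deficient arrays, with wild type replicate 1 at 1.45. All 4 markers of interstitial progenitors, which are among the cells outside the tubules, had higher means, with a median change of 0.42, and Pdgfra rose (change 0.50, limma adjusted p = 0.0491). All 4 had an unadjusted limma p under 0.05 (against the same 28.8%), and 3 were separate between genotypes (against the same 17.7%). Their list mean was 1.76 to 1.90 on the wild type arrays and 2.10 to 2.30 on the VRK1-deficient arrays.

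Of 10 Sertoli cell markers, 7 had changes above 0 and 3 below, and none was called by limma or the methods' t-test. At an unadjusted limma p under 0.05 there were 5 (28.8% of all tested probes). With the trend and robust variances 1 was called, as were 1915 of all 26948 tested probes. The median of the Sertoli list was 0.26, its extremes were 1.19 for Amh and -1.08 for Rhox5, and its list mean was 1.95 to 2.57 on the wild type arrays and 2.31 to 2.63 on the VRK1-deficient arrays. The median change of 6 Leydig cell markers was 0.28, with none called, 2 at an unadjusted limma p under 0.05 (against the same 28.8%), and list means of 1.02 to 1.67 in wild type and 1.29 to 1.91 in VRK1-deficient testes. Of 6 peritubular myoid cell markers, Cnn1 fell (change -0.99, limma adjusted p = 0.0445), and the list median was -0.07. Cnn1 was the only 1 of these at an unadjusted limma p under 0.05 (against the same 28.8%). The medians of 4 endothelial and 4 macrophage markers were 0.35 and 0.09, with none called by limma, by the methods' t-test or with the trend, and with 1 and 0 at an unadjusted limma p under 0.05 (again against 28.8%). The genotypes were separate for 3 Sertoli cell markers (2 higher, 1 lower) and 2 peritubular myoid cell markers (1 higher, 1 lower). They were also separate for 1 Leydig cell, 1 endothelial and 0 macrophage markers, against 17.7% of all symbols.

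**Figure D5:**
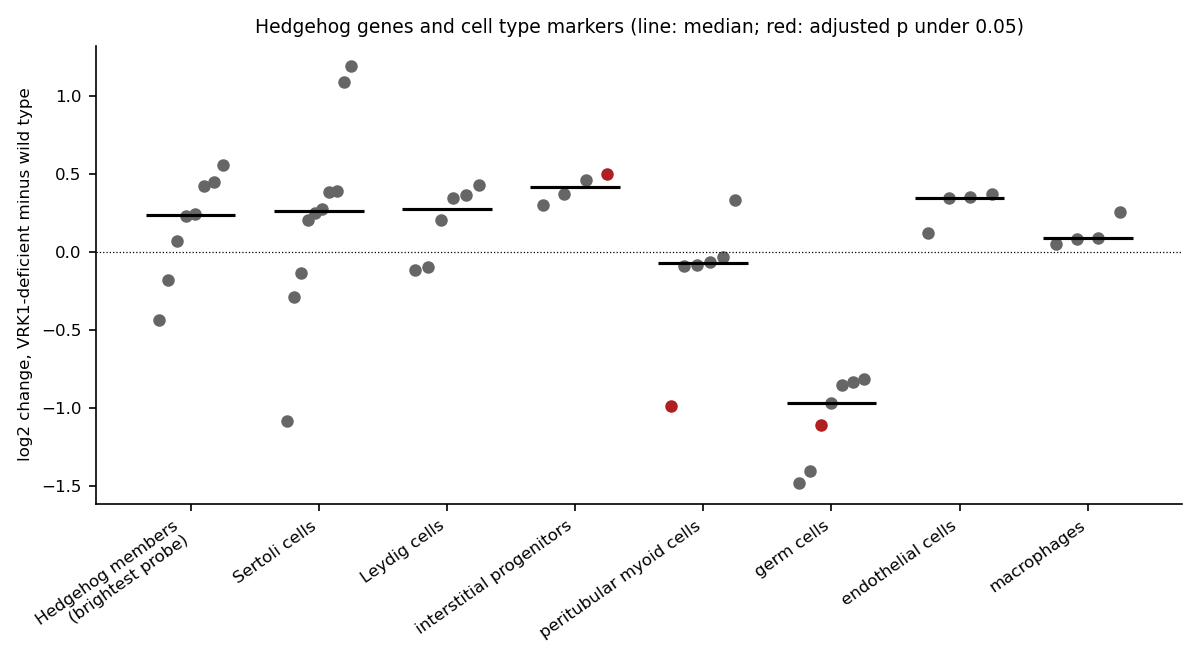
Log2 change (vertical axis, VRK1-deficient minus wild type) of the brightest probe of 8 Hedgehog genes and of each marker gene in 7 cell type lists, with the median as a line and red points where the limma adjusted p was under 0.05. All 7 germ cell markers lie below -0.80, all 4 interstitial progenitor markers lie above 0.30, and the Hedgehog genes spread from -0.43 to 0.56.

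For Dhh, Ptch1 and Gli1 the genes with the most similar levels over the 8 arrays were sought among 24364 probes well above background on all of them. These correlations describe 8 arrays that share genotype, slide and scaling, and carry no p. Closest to Dhh were Gstp1, Bnip1, Ntng1, Trmu and Cracd, with Pearson's r of 0.994 to 0.9905. Among the genes closest to Gli1 were Nhsl2, Stox2, Psrc1 and E130118H10Rik, with r of 0.995 to 0.9902. Closest to Ptch1 were LOC670838, Bckdha, Ankrd10, Ebf4 and Erbb2, with r of 0.986 to 0.956. The log2 changes of the genes closest to Dhh were 0.30 to 0.90 and of those named for Gli1 0.43 to 0.97, and none had a limma adjusted p under 0.0802.

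GLI factors bind a short DNA motif, whose consensus GACCACCCA (TGGGTGGTC on the other strand) was sought in RefSeq promoter windows of build GRCm38.p6, from 250 bases before to 50 bases after the start of a gene. Windows were matched for 7 of the 9 genes, without Gli1 and Shh. The motif was in 0 of these 7 windows and in 0.253% of all 32851 windows, which says only that these letters are not in these windows.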

How the data were processed

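RNA was labeled with Cy3 and hybridized to 1 array per sample, and the authors extracted the signals with Agilent Feature Extraction 9.5.3.1. The deposited values are background-subtracted processed intensities on a linear scale, not scaled between arrays. Here each deposited intensity was divided by the 75th percentile of the same array and put on the log2 scale. Outlier and control spots were left out (0 saturated), and spots of a probe were averaged. The 26948 probes that were well above background on 4 or more of the 8 arrays were fitted with limma 3.58.1 under R 4.3.3, using lmFit, eBayes and Benjamini-Hochberg adjustment. Probes of other genes were named through RefSeq by accession (22951), symbol (6659) or synonym (3109), or by the array file (8455). The fit was tested on simulated data with independent noise for each probe and array. Such data hold no deviations shared by a whole array, so this test cannot show how the fit behaves with them. Members and lists were chosen with earlier results of these data known. Named beside the members were pathway genes called or without overlap, and of the rest those with the largest changes until 3 were named per role; Sufu, Foxf1 and the markers were added after their values were seen. Alternatives were quantile normalization, normexp (offset 50), the deposited values unscaled, no filter, a filter on all 8 arrays, slide or replicate number as a block, each slide alone, each array left out, the methods' t-test, and a trend with robust variances. The number of arrays limits the precision. Other tables of the study were not used here. The values of some listed genes and a probe sequence are not reported here.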

Additional observations from a re-analysis of the deposited data

Results flagged for a closer look

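In 4 of 48 groups of 4 arrays, 1 array lay farther from the others than Dixon's test allows, and chance flags about 1 in 20 groups. Gli2 A_52_P357829 was at -1.56 on wild type replicate 3, where the rest of the group was at -1.16 to -1.13. Boc was at 0.10 on the same array, against 0.78 to 0.91 on the others. The called Hhip probe A_51_P416822 was at -3.23 on VRK1-deficient replicate 2, against -2.88 to -2.82 on the other VRK1-deficient arrays. Hhat was at -3.08 on VRK1-deficient replicate 3, against -2.57 to -2.48 on the others.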

How the results depend on the processing

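The count of called probes, 986, was 17 with no filter on dim probes, 641 with slide as a block, 162 with the methods' t-test, 1915 with an intensity trend and robust variances and 3 within slide 1, and between 3 and 7655 with 1 array left out. Against 451 higher and 535 lower calls, the unscaled deposited values gave 64 and 852, and quantile normalization 439 and 358; unscaled values moved the median change of all probes by -0.18. The count of called Hedgehog probes, 1, was 0 with unscaled values, no filter, slide 1 alone, slide 2 alone and the methods' t-test, and between 0 and 5 with 1 array left out. The count of other pathway genes called, 3, was 1 with no filter, 6 with the trend and robust variances, 0 within slide 1 and 1 with the methods' t-test, and between 0 and 16 with 1 array left out. The change of Hhip A_51_P416822, 0.63, kept its sign and lost its call with unscaled values (0.45), no filter (0.63), slide 1 alone (0.55), slide 2 alone (0.72) and the methods' t-test (0.63), and was between 0.59 and 0.73 with 1 array left out. That of Hhip A_52_P249826 was between 0.36 and 0.48 with 1 array left out and was called without wild type replicate 1. With unscaled values it was 0.24 (limma adjusted p = 0.55). Ihh turned to 0.22 with normexp, and Ptch1 to -0.11 with unscaled values, to -0.12 within slide 1, to -0.094 without wild type replicate 3 and to -0.0049 without VRK1-deficient replicate 1, with values of up to 0.17 with another array left out. The causes were not tested. Replicate numbers were not taken to pair the samples, since the correlation of their deviations lay between -0.14 and 0.47 over the 4 numbers. With the replicate block 2275 probes were called, 1 Hedgehog probe (Hhip A_51_P416822, change 0.63) and 6 other pathway genes.

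Limits are the 4 arrays per genotype, calls that rest on small differences in adjusted p, array positions that coincide with genotype, and the dim probes of Ihh and Shh, Ptch1 A_52_P598605, Smo A_51_P392665, Gli2 A_52_P564620 and Gli3 A_51_P410070, for which signal over background limits any statement.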
